A study of Saccharomyces cerevisiae with 14 samples.

Results

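The 31 genes for the subunits of yeast RNA polymerases I, II and III were taken by their current symbols, namely RPA, RPB or RPC followed by a number, together with RPO21, RPO26, RPO31 and RET1. All 31 were found on both array formats, out of 5315 genes named on both, and all 31 passed the signal filter that left 4287 genes for the test. They comprise 7 subunits found in Pol I alone, 7 in Pol II alone and 10 in Pol III alone, 2 in Pol I and III, and 5 in all 3 enzymes. Transcripts were measured in poly(A) RNA, which selects messenger RNAs and not the main products of Pol I and Pol III, in 5 samples of budding yeast (Saccharomyces cerevisiae) of background W303 and mating type MATa, grown to mid-logarithmic stage in the rich glucose medium YEPD. Control 1/2 (control strain SCY328), mutant 1 (ARV1 mutant isolate SCY820) and mutant 2 (ARV1 mutant isolate SCY840) were hybridised to Ye6100, an Affymetrix set of 4 chips per sample. Control 3 (control strain SCY2004) and mutant 3 (again SCY840) were hybridised to the single-chip S98 array. Mutants 1 and 2 share their control, and no label says whether samples came from separate cultures, so a p-value here reflects only how these samples spread, which may be technical. The labels do not describe the ARV1 mutation further. The Arv1 protein sits in the endoplasmic reticulum membrane and has a part in moving lipids.

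Nuclear transcription in yeast is divided among 3 related enzymes. Pol I makes the precursor of the large ribosomal RNAs, Pol II makes messenger RNAs, and Pol III makes transfer RNAs and other small RNAs. Each enzyme is built on a pair of large catalytic subunits, a pair of subunits related to bacterial alpha, a protruding stalk and several small subunits that all 3 share. Pol I and Pol III also carry built-in counterparts of factors that join Pol II only during initiation. In growing yeast most transcription is by Pol I and Pol III, and genes for ribosome production are known to be adjusted to growth conditions and stress.

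Signals are MAS5 values, which are linear brightness units of a probe set, and a signal of 1 gene is never set against that of another here. ARV1 itself was below its control in every mutant, with 1.0 (mutant 1) and 2.2 (mutant 2) beside 33.4 in control 1/2, and 6.79 (mutant 3) beside 51.8 in control 3. The summed signal of the 5 a-cell marker genes lay between 5703 and 6137 in controls and between 3312 and 4514 in mutants, and that of the 4 alpha-cell markers between 36.8 and 171.9 in any sample, with no single alpha-cell marker at 0. Of the 5 a-cell markers 3 were lower in all 3 mutants, beside 14.6% of all tested genes. MFA2, with 4272.5 in control 1/2, had 1779.8 in mutant 1 and 1712.8 in mutant 2. MFA1 instead was higher in mutants 1 and 2, at 1294.9 and 1195.0 beside 839.4. BAR1 was higher in mutant 3, at 434 beside 344 in control 3. The part of the lower a-cell sums in the results was not tested. Mutant 2 stood apart in the control probe sets that read the 5' and the 3' part of 1 transcript. For the actin gene ACT1 the 5' to 3' ratio on Ye6100 was 0.781 for control 1/2, 0.764 for mutant 1 and 0.351 for mutant 2, and the S98 pair had 1.15 (control 3) and 1.17 (mutant 3). For SPT15, the TATA-binding protein gene, it was 0.563, 0.603, 0.370, 0.518 and 0.296 in the same order, and for the Mediator subunit gene SRB4 0.691, 0.399, 0.201, 0.403 and 0.274. Mutant 2 therefore had the lowest ratio on Ye6100 for all 3 genes. In mutant 3 the ratio was below that of its control for SPT15 and SRB4 only. The part of this in the mutant 2 values below was not tested, and values without mutant 2 are given.

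**Figure D1:**
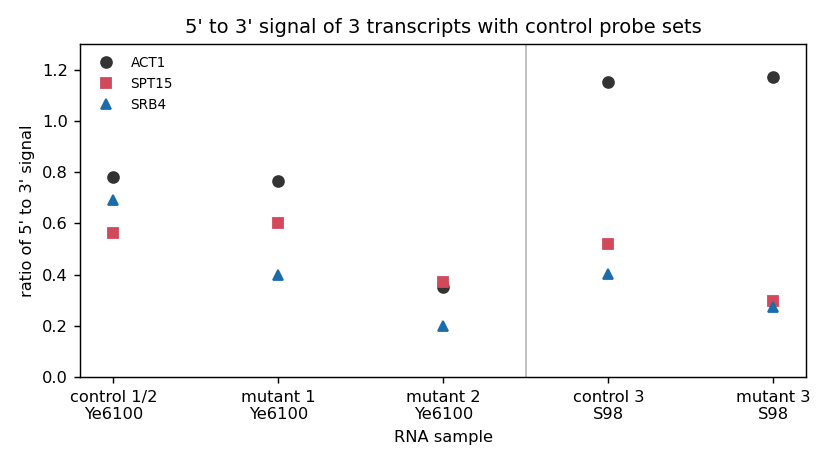
Ratio of 5' to 3' signal (vertical axis, no unit) for ACT1, SPT15 and SRB4 in the 5 RNA samples, with Ye6100 left of the line and S98 right of it. Each Ye6100 point is a ratio of means over the 4 chips. Mutant 2 is lowest among the Ye6100 samples for all 3 genes, at 0.351, 0.370 and 0.201.

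Pol I subunit transcripts had lower signals in the mutants, apart from RPA12 in mutant 2 and RPA135 in mutant 3. Subunits of Pol II went both ways, from a log2 ratio of -2.04 (RPO21) to 1.03 (RPB11), both in mutant 2, and the median of Pol III lay between those of Pol I and Pol II. The fitted log2 change, which combines the 3 mutants and 2 controls with the array format as a block, had a median of -0.62 over the 7 Pol I subunits, -0.35 over the 10 Pol III subunits and -0.07 over the 7 Pol II subunits. It was -0.36 for the 2 subunits of Pol I and III and -0.13 for the 5 common subunits. Over all tested genes it was 0.10. Of the 31 subunits 25 had a fitted change below 0, as had 42.0% of all tested genes. With median centring and with S98 signals as deposited all 31 were below 0, beside 56.6% and 73.2% of all genes, and with quantile normalization 26 were, beside 49.1%. The deposited S98 signals had trimmed means (2% cut at each end) of 500.3 in control 3 and 250.1 in mutant 3. Using them as deposited lowers every mutant 3 ratio. By limma 0 of the 31 passed an adjusted p of 0.05, beside 0% of all tested genes, and their adjusted p lay between 0.716 and 0.997. At an unadjusted p under 0.05 there was 1 subunit, RPC31, where 6.55% of all tested genes were. The difference between the 3 enzymes was not tested. In RNA from whole cultures, less RNA per cell and fewer cells that make it cannot be told apart.

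**Figure D2:**
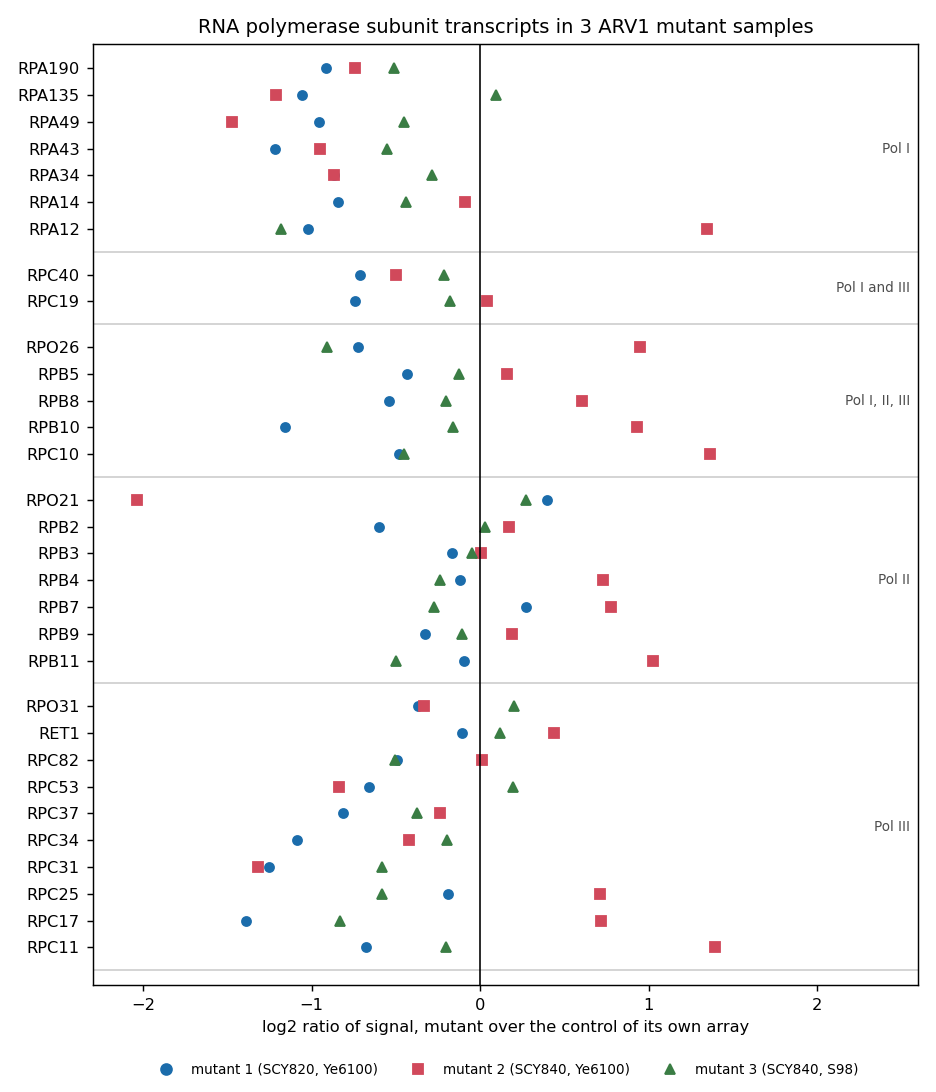
Log2 ratio of signal in each mutant over the control of its own array (horizontal axis) for the 31 subunit genes, grouped by the polymerases that hold the subunit. Circles are mutant 1, squares mutant 2 and triangles mutant 3, with 1 sample per point. All 7 Pol I circles lie between -1.22 and -0.84, whereas the squares of the 5 common subunits all lie right of 0.

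Counted by direction, 9 of the 31 subunits (29.0%) were lower than their control in all 3 mutants, beside 14.6% of all tested genes, and 0 were higher in all 3, beside 26.2%. The 9 were the Pol I subunits RPA190, RPA49, RPA43, RPA34 and RPA14, the Pol III subunits RPC37, RPC34 and RPC31, and RPC40 of both enzymes. No subunit of Pol II and none of the common subunits was among them. In mutant 1 29 of 31 subunits were lower than the control, in mutant 3 25 and in mutant 2 13. Over all tested genes these shares were 36.0%, 40.8% and 51.5%. The mutant 3 count depends on the scaling, with 31 subunits lower for signals as deposited (90.1% of all tested genes) and with median centring (60.1%), and 27 with quantile normalization (49.8%). The scaling moves the median of all tested genes in mutant 3 from 0.13 to -0.87 as deposited, -0.16 and 0.00, and the count lower in all 3 mutants from 9 to 12, 11 and 11 in the same order. Mutants 1 and 3 had 24 subunits lower together, beside 24.5% of all genes, and 15 of these were higher in mutant 2, beside 9.84%.

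The 2 largest subunits of Pol I form its active centre. RPA190 (YOR341W, chromosome XV) had 77.5, 41.1 and 46.4 on Ye6100 (control 1/2, mutant 1, mutant 2, the order used for every gene) and 664.3 and 466.3 on S98 after scaling (control 3, mutant 3). All mutants were below their control, by 1.89-, 1.67- and 1.42-fold. The S98 array holds 7 probe sets for RPA190, of which 5 were lower in mutant 3, while the other 2, with control signals of 13.6 and 18.6, were higher. RPA135 (YPR010C, chromosome XVI) had 979.2, 471.2 and 422.9 on Ye6100, which was 2.08- and 2.32-fold lower in mutants 1 and 2. On S98 it had 542.8 in control 3 and 578.9 in mutant 3, a log2 ratio of 0.09 that turns to -0.19 when each sample is centred on its median. Mutants 1 and 2 thus lay below the control and mutant 3 slightly above it, and the fitted log2 change was -0.61 ± 0.44 (SE, 3 mutants and 2 controls, as for all fitted values).

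The Pol I stalk is made of Rpa43, which also contacts the initiation factor Rrn3, and Rpa14. RPA43 (YOR340C) had 196.2, 84.4 and 101.6 on Ye6100 and 492.7 and 335.2 on S98. It was 2.32-, 1.93- and 1.47-fold lower, with a fitted change of -0.86 ± 0.35 and a limma adjusted p of 0.735. RPA43 and RPA190 are neighbours on chromosome XV, read in opposite directions from the space between them, and their log2 ratios in the 3 mutants were -1.22, -0.95 and -0.56 for RPA43 beside -0.92, -0.74 and -0.51 for RPA190. RPA14 (YDR156W) had 317.3, 176.7 and 297.9 on Ye6100 and 1226 and 902.3 on S98. Its mutant 2 ratio of -0.09 is close to 0 and turns to 0.0016 with median centring, while mutants 1 and 3 were 1.80- and 1.36-fold lower.

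Rpa49 and Rpa34 form a pair that resembles the Pol II factor TFIIF and helps the enzyme elongate. RPA49 (YNL248C) had 406.7, 209.7 and 146.4 on Ye6100 and 538.8 and 393.0 on S98, which was 1.94-, 2.78- and 1.37-fold lower. Its fitted change of -0.89 ± 0.40 was the lowest of the Pol I subunits, with a limma adjusted p of 0.747. RPA34 (YJL148W) had 223.7, 122.5 and 122.8 on Ye6100 and 1240 and 1018 on S98. Both members of the pair were lower in every mutant, RPA34 by 1.83-, 1.82- and 1.22-fold.

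Rpa12, which helps the enzyme cleave backtracked RNA and end transcription, differed most between the mutants among Pol I subunits. RPA12 (YJR063W) had 291.7, 143.5 and 740.0 on Ye6100 and 1161 and 512.3 on S98. Mutants 1 and 3 were 2.03- and 2.27-fold lower, whereas mutant 2 was 2.54-fold higher. Mutants 2 and 3 are the same isolate, SCY840, on different arrays and against different controls. The fitted change was -0.41 ± 0.78, with the largest SE of the 31 subunits. It was 0.08 without mutant 1 and 0.16 without mutant 3.

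**Figure D3:**
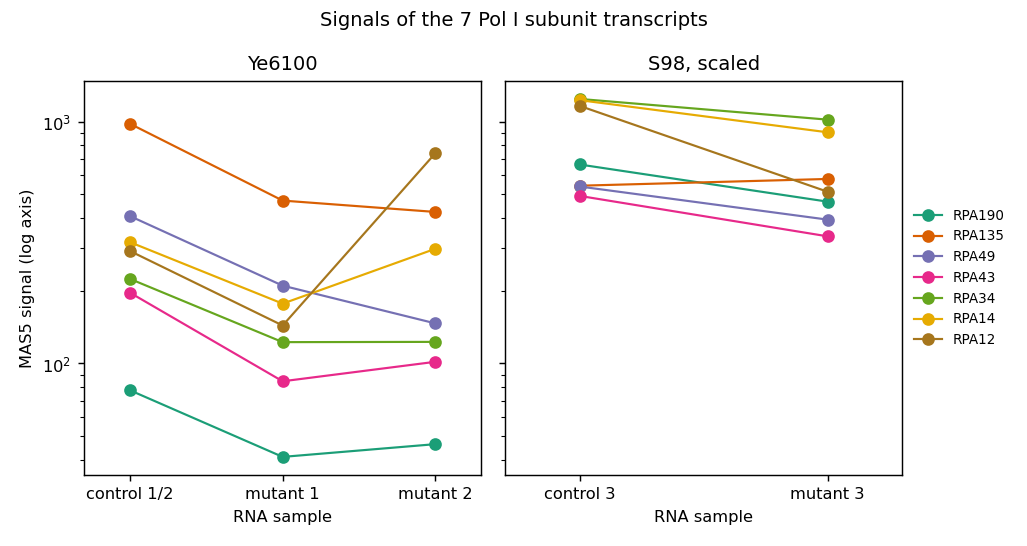
MAS5 signal (log axis) of the 7 Pol I subunit transcripts in each RNA sample, Ye6100 on the left and S98 after scaling on the right, with 1 line per gene. On Ye6100 all 7 lines drop from control 1/2 to mutant 1, and RPA12 alone stands above the control in mutant 2, at 740.0 against 291.7.

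Pol I and Pol III share Rpc40 and Rpc19, the counterparts of bacterial alpha that start the assembly of the enzyme. RPC40 (YPR110C) had 705.4, 430.9 and 498.3 on Ye6100 and 542.7 and 468.0 on S98, lower in every mutant by 1.64-, 1.42- and 1.16-fold. RPC19 (YNL113W) had 714.1, 427.2 and 734.2 on Ye6100 and 1535 and 1353 on S98. It was 1.67-fold lower in mutant 1 and 1.13-fold lower in mutant 3, and its mutant 2 signal lay at the control level. The fitted changes were -0.44 ± 0.37 and -0.28 ± 0.42.

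The 5 subunits common to all enzymes sit around the catalytic core. They were lower than their control in mutants 1 and 3 and higher in mutant 2, each of the 5. Their median log2 ratios in mutants 1, 2 and 3 were -0.54, 0.93 and -0.20, and with quantile normalization RPB8 turned to 0.05 in mutant 3. RPC10 (YHR143W-A, also named RPB12) had 473.9, 339.1 and 1217 on Ye6100 and 1680 and 1226 on S98. RPB10 (YOR210W) had 599.1, 268.7 and 1144 on Ye6100 and 2569 and 2298 on S98. Rpb10 and Rpc10 are small zinc-binding subunits, and the signals of their transcripts in mutant 2 were 1.91- and 2.57-fold above control 1/2. RPO26 (YPR187W) had 457.1, 276.0 and 880.9 on Ye6100 and 2554 and 1359 on S98, so the 2 samples of isolate SCY840 lay on opposite sides of their controls, at log2 ratios of 0.95 and -0.91. RPB8 had log2 ratios of -0.54, 0.61 and -0.20, and RPB5, which lies in the jaw of the enzyme, -0.44, 0.16 and -0.13. The fitted changes of the 5 lay between -0.33 and 0.06, with SEs up to 0.67.

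Among the subunits of Pol II alone, RPO21 had the widest spread. RPO21 (YDL140C) encodes the largest subunit, whose C-terminal repeat domain recruits RNA processing factors. Its signals were 271.3, 357.2 and 66.1 on Ye6100 and 572.4 and 691.9 on S98. Mutant 2 was 4.10-fold below its control, while mutants 1 and 3 had log2 ratios of 0.40 and 0.27, the latter -0.01 with median centring. Its fitted change was -0.35 ± 0.78 and became 0.34 without mutant 2. RPB2 (YOR151C), the second-largest subunit, had 300.6, 197.9 and 338.0 on Ye6100 and 800.8 and 815.6 on S98. RPB2 in mutant 1 was 1.52-fold lower, and mutants 2 and 3 lay slightly above their controls.

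RPB3 and RPB11 encode the alpha-like pair of Pol II. RPB3 (YIL021W) had 207.0, 184.5 and 207.3 on Ye6100 and 445.0 and 430.4 on S98, within a log2 ratio of 0.17 of its control in every mutant. RPB11 (YOL005C) had 370.6, 347.1 and 754.6 on Ye6100 and 961.0 and 680.0 on S98, with mutant 2 high at 2.04-fold and mutant 3 low at 1.41-fold below its control. The stalk subunits RPB4 and RPB7 had log2 ratios of -0.12, 0.73 and -0.24 (RPB4) and 0.27, 0.78 and -0.27 (RPB7). The stalk genes were thus higher in mutant 2 alone, apart from RPB7 in mutant 1, which is at -0.04 with median centring. RPB9, for a subunit that keeps selection of nucleotides accurate, had -0.33, 0.19 and -0.11. Apart from RPO21, no subunit of Pol II alone was 2-fold lower than its control in any mutant.

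In Pol III the 2 catalytic subunits had fitted changes closer to 0 than the 5 subunits that Pol II lacks, which lay between -0.99 and -0.35. RPO31 (YOR116C), the largest subunit, had 80.5, 62.2 and 63.8 on Ye6100 and 129.8 and 148.9 on S98. RET1 (YOR207C), the second-largest, had 151.5, 140.7 and 204.8 on Ye6100 and 1115 and 1212 on S98. Their fitted changes were -0.12 ± 0.34 and 0.15 ± 0.38, and the latter turns to -0.04 with median centring. The trimer of Rpc82, Rpc34 and Rpc31 opens DNA and resembles the Pol II factor TFIIE in part. RPC31 (YNL151C) had 182.3, 76.6 and 73.0 on Ye6100 and 466.1 and 310.9 on S98. It was lower in every mutant, by 2.38-, 2.5- and 1.5-fold, and its fitted change of -0.99 ± 0.35 was the lowest of the 31 subunits, with a limma p of 0.033 before and 0.716 after adjustment over all genes.

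RPC34 (YNR003C), whose product contacts the initiation factor Brf1, had 242.2, 113.8 and 180.8 on Ye6100 and 245.6 and 213.8 on S98. All mutants were lower, by 2.13-, 1.34- and 1.15-fold. RPC82 had log2 ratios of -0.50, 0.01 and -0.50, so its mutant 2 signal of 67.1 stood at the control's 66.7. The pair of Rpc53 and Rpc37, which resembles TFIIF and serves termination and reinitiation, had no common pattern on S98. RPC37 (YKR025W) had ratios of -0.81, -0.24 and -0.37, and RPC53 (YDL150W) -0.66, -0.84 and 0.19, the last of which is -0.09 with median centring. The Ye6100 signals of RPC53 were low, at 40.2, 25.4 and 22.5 beside a filter of 25.4 on the mean.

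The Pol III stalk and the small subunit Rpc11 again separated mutant 2 from the others. RPC17 (YJL011C), for a stalk subunit, had 84.0, 32.1 and 138.3 on Ye6100 and 262.0 and 147.2 on S98, which was 2.62- and 1.78-fold lower in mutants 1 and 3 and 1.65-fold higher in mutant 2. RPC25, for its partner, had log2 ratios of -0.19, 0.71 and -0.58. RPC11 (YDR045C), for the subunit that cleaves RNA and enables termination, had 290.4, 181.7 and 763.5 on Ye6100 and 1779 and 1548 on S98. Mutant 2 was 2.63-fold above the control for RPC11, and mutants 1 and 3 were 1.60- and 1.15-fold below.

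Corresponding subunits of the 3 enzymes were set side by side. For the largest subunits RPA190, RPO21 and RPO31 the fitted changes were -0.69 ± 0.33, -0.35 ± 0.78 and -0.12 ± 0.34, and for the second-largest RPA135, RPB2 and RET1 -0.61 ± 0.44, -0.11 ± 0.41 and 0.15 ± 0.38. In the larger stalk position RPA43, RPB7 and RPC25 had -0.86 ± 0.35, 0.18 ± 0.41 and -0.10 ± 0.44. In the smaller stalk position RPA14, RPB4 and RPC17 had -0.46 ± 0.41, 0.07 ± 0.42 and -0.55 ± 0.66. The small subunits RPA12, RPB9 and RPC11, which are related to each other and in part to the cleavage factor TFIIS, had -0.41 ± 0.78, -0.09 ± 0.37 and 0.12 ± 0.68. None of these differences was tested.

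**Figure D4:**
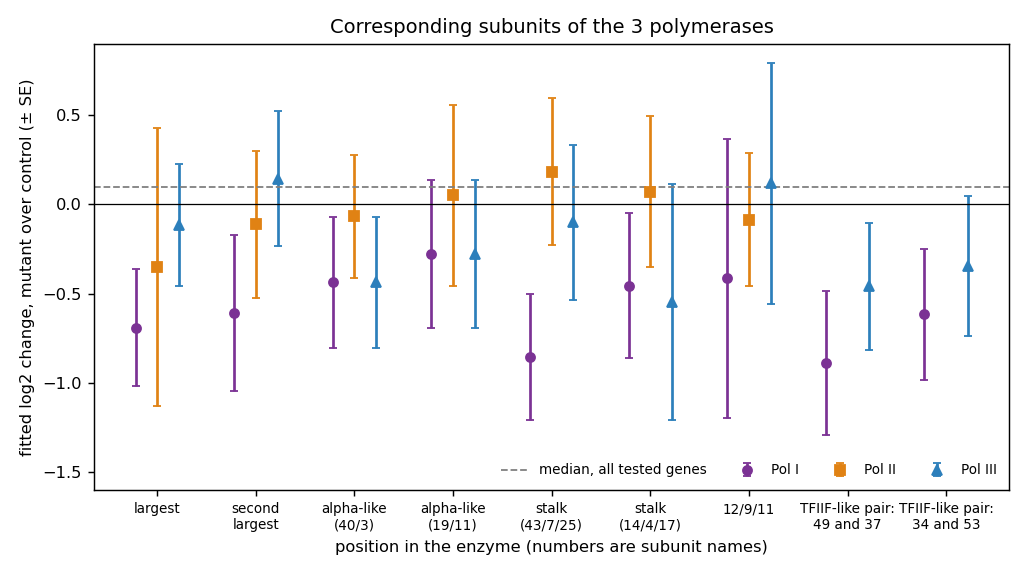
Fitted log2 change of mutants over controls with its SE (vertical axis) for corresponding subunits of Pol I (circles), Pol II (squares) and Pol III (triangles). RPC40 and RPC19 are drawn for both Pol I and Pol III, the 2 right-hand places show 1 pair that Pol II lacks, and the dashed line is the median of all tested genes, 0.10. Pol I points lie between -0.89 and -0.28, all below the dashed line.

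Within each mutant the enzymes kept a similar order, although the values depend on the sample. In mutant 1 the median log2 ratio was -0.96 for Pol I, -0.67 for Pol III and -0.12 for Pol II, where all tested genes had 0.24. In mutant 3 it was -0.46, -0.29 and -0.11, where all tested genes had 0.13. In mutant 2 it was -0.87, -0.11 and 0.19, with all tested genes at -0.04. Pol I had the lowest of these medians and Pol II the highest in each of the 3 mutants, also with median centring, quantile normalization and S98 signals as deposited. The order did not hold throughout, since a filter at the median signal put Pol III above Pol II in mutant 2. The medians there were 0.43 for Pol III, over fewer genes, and 0.19 for Pol II. Mutants 1 and 2 are not independent here, since they share control 1/2. At least 2-fold lower than the control were 7 subunits in mutant 1, 4 in mutant 2 and 1 in mutant 3, beside 4.08%, 16.8% and 1.49% of all tested genes, and at least 2-fold higher were 0, 4 and 0, beside 15.3%, 12.5% and 9.98%. The 7 of mutant 1 were RPA135, RPA43, RPA12, RPB10, RPC34, RPC31 and RPC17. The 4 higher ones of mutant 2 were RPA12, RPC10, RPB11 and RPC11.

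**Figure D5:**
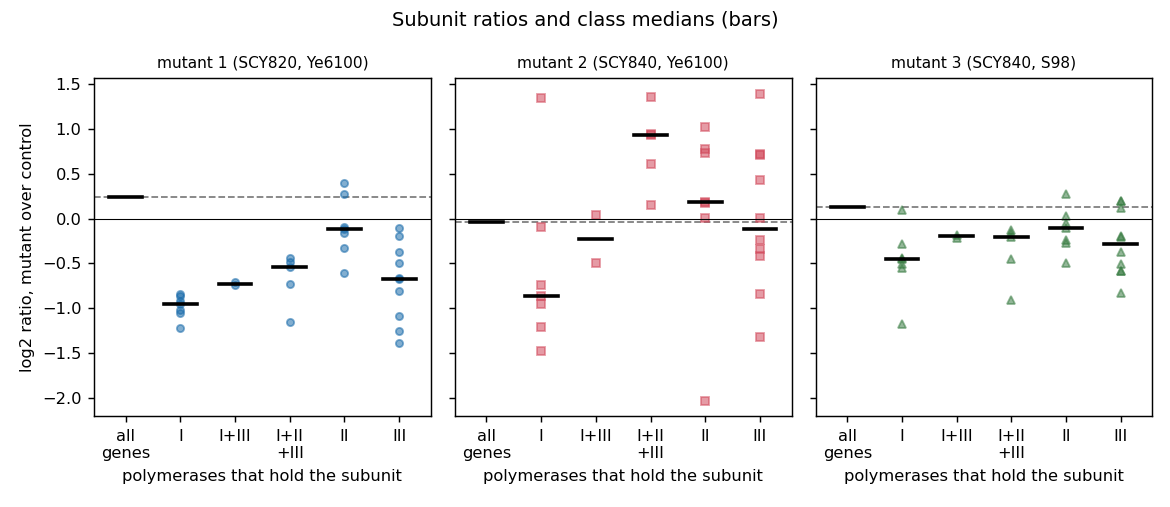
Log2 ratio of each subunit over the control of its own array (vertical axis) by the polymerases that hold it, in 1 panel per mutant, with class medians as bars and the median of all tested genes as a dashed line. Pol I medians are -0.96, -0.87 and -0.46 in mutants 1, 2 and 3, and the medians of the common subunits are -0.54, 0.93 and -0.20.

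The 2 isolates were compared directly on Ye6100, with 1 sample each and no test. Mutant 2 (SCY840) was above mutant 1 (SCY820) for 26 of 31 subunits, beside 1675 of 4287 tested genes. The median log2 difference was 0.57 for the subunits, where all tested genes had -0.25. The difference was at least 2-fold for 8 subunits, beside 8.00% of all tested genes, namely RPA12 at 2.37, RPC17 at 2.11, RPB10 at 2.09, RPC11 at 2.07, RPC10 at 1.84, RPO26 at 1.67, RPB8 at 1.15 and RPB11 at 1.12. The 8 encode small subunits, and 4 of them are common to all 3 enzymes. In the other direction only RPO21, for the largest subunit of Pol II, passed 2-fold, at -2.43, beside 23.8% of all genes. RPB9 and RPA14, also for small subunits, were higher in mutant 2 too, by 0.51 and 0.75, which is short of 2-fold. A relation to subunit size was not tested. Of the 3 largest subunits 2 were higher in mutant 2 than in mutant 1, as were 2 of the 3 second-largest. For RPA190, RPA34 and RPA43 the isolates differed by 0.18, 0.0035 and 0.27. Higher signals in mutant 2 were not particular to the subunits. Of 65 cytosolic ribosomal protein genes 62 were above mutant 1, 23 of them at least 2-fold, with a median of 0.93. Of 56 ribosome biogenesis genes 40 were above it, 8 at least 2-fold, with a median of 0.32. The same isolate did not give the same picture on S98, where 20 of 31 subunits had the opposite sign in mutants 2 and 3, beside 50.1% of all tested genes.

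Without mutant 2, the sample with the low 5' to 3' ratios on Ye6100, limma called 4 subunits lower at an adjusted p under 0.05, beside 2.29% of all tested genes called lower and 15.6% called in either direction. By that fit RPA12 had -1.10 ± 0.28 with a limma adjusted p of 0.0148, and RPC17 -1.11 ± 0.28 with 0.0152. RPC31 had -0.92 ± 0.28 with a limma adjusted p of 0.0367, and RPA43 -0.89 ± 0.28 with 0.0429. All 4 were lower in both mutants. That fit rests on mutants 1 and 3, each against its own control, and leaves 1 residual degree of freedom. The eBayes step therefore takes the spread of each gene mostly from the other genes, and the SEs of the subunits lay between 0.27 and 0.32. These adjusted p say little about how a single subunit varies between samples. RPO26 and RPA190 had -0.82 ± 0.28 and -0.71 ± 0.27, with limma adjusted p of 0.0592 and 0.0854. The class medians were then -0.71 for Pol I, -0.47 for Pol III and -0.18 for Pol II, where all tested genes had 0.19. RPB7 and RET1 had 0.0002 ± 0.29 and 0.0068 ± 0.28, each from ratios of opposite sign, 0.27 and -0.27 for RPB7 and -0.11 and 0.12 for RET1.

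Factors that work with the polymerases were counted in lists chosen, like the subunits, with earlier results known. In each list limma called 0 genes, and the lists were not tested against the subunits. Of the Pol I initiation factors 4 of 9 were tested, with a median fitted change of 0.22, 1 lower and 1 higher in all 3 mutants. RRN10, of the upstream activating factor, had 0.64 ± 0.39, RRN9 of the same complex -0.49 ± 0.34, and RRN3, which binds Rpa43, 0.46 ± 0.39. Of the Pol III factors 9 of 10 were tested, of which 3 (33.3%, beside 26.2% of all tested genes) lay above the control in every mutant and 0 below it, with a median fitted change of -0.05. With S98 signals as deposited 1 was higher and 3 were lower, and the median was -0.48. The TFIIIC subunit genes TFC6, TFC4 and TFC1 had 1.15 ± 0.41, 0.57 ± 0.46 and 0.55 ± 0.34. The median fitted changes of both lists lay above those of the subunits they serve, also under the 3 other scalings. The Pol I factors there had -0.21 as deposited, 0.03 with median centring and -0.03 with quantile normalization. In mutant 2 alone the median log2 ratio of the Pol III factors, -0.24, lay below the -0.11 of the Pol III subunits.

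Of the general factors of Pol II 21 of 22 were tested, 2 lower and 7 (33.3%, beside 26.2% of all tested genes) higher in all 3 mutants, with a median fitted change of 0.23. With S98 signals as deposited 3 were lower and 1 higher and the median was -0.20, and 5 were lower and 4 higher with median centring and 5 and 5 with quantile normalization. TFB3, for a subunit of TFIIH, had log2 ratios of 1.14, 1.04 and 1.03 and a fitted change of 1.06 ± 0.32 with a limma adjusted p of 0.641. The elongation factor gene SPT5 had -0.76 ± 0.56 and the TFIIB gene SUA7 0.70 ± 0.37. Of the Mediator, the coactivator of Pol II, 19 of 25 genes were tested, of which 9 (47.4%, beside 26.2% of all tested genes) lay above the control in every mutant and 0 below it, with a median fitted change of 0.50. With S98 signals as deposited 1 was higher and 3 were lower, with a median of 0.07, and with median centring and quantile normalization 7 were higher and 3 lower. SOH1, SRB6 and MED4 had 1.09 ± 0.39, 0.92 ± 0.47 and 0.81 ± 0.41. For the mitochondrial enzyme, RPO41 had -0.05 ± 0.45 and its partner MTF1 0.25 ± 0.37.

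Of the genes for polymerase assembly and nuclear import 5 of 8 were tested, of which 3 were lower and 1 higher in all 3 mutants (median fitted change -0.24). These shares of 60.0% and 20.0% stand beside 14.6% and 26.2% of all tested genes. Apart from GPN3 the lower genes were close to 0 in mutant 3, at log2 ratios of -0.09 and -0.01. With S98 signals as deposited 3 were lower and 1 higher, and with median centring and quantile normalization 4 were lower and 1 higher. GPN3, whose product is needed for assembly and import of Pol II, is the direct neighbour of ARV1. Its signals were 140.1, 37.7 and 54.5 on Ye6100 and 1403 and 604.5 on S98. All mutants were lower, with a fitted change of -1.45 ± 0.37 and a limma adjusted p of 0.526. IWR1, the import adaptor of Pol II, had 0.61 ± 0.40, and BUD27, a prefoldin-like assembly factor, -0.30 ± 0.38.

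Ribosome biogenesis genes, taken as UTP, NOP, RRP and DBP with a number, had median log2 ratios of -0.74, -0.35 and -0.16 in mutants 1, 2 and 3, and 29 of 56 tested were lower in all 3. Pol I subunits, at -0.96, -0.87 and -0.46 with 5 of 7 lower in all 3, stood lower than these medians in each mutant, and the difference was not tested. Cytosolic ribosomal protein genes had -0.66, 0.18 and -0.25, with 11 of 65 lower in all 3, beside 14.6% of all tested genes. With quantile normalization their medians were -0.19, 0.06 and 0.01, and the number higher in all 3 was 7 in place of 1. In mutant 2 their median had the sign of the 5 common subunits, whereas the Pol I subunits other than RPA12 were below 0 there, RPA14 by 0.09 only. Pol III subunits and the 31 as a whole did not stand lower than the biogenesis genes in the fit. The median fitted change was -0.36 for biogenesis genes, -0.35 for Pol III and -0.33 for all 31. Lower in all 3 mutants were 51.8%, 30.0% and 29.0% of them, beside 14.6% of all tested genes.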

How the data were processed

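The deposited values are intensities, 1 linear MAS5 signal per probe set, per the submitters' processing notes. Not given in the sources used here are the MAS5 version, its scaling target and the genome build. In the Ye6100 table as deposited, the 4 chips of a sample form 1 column, per the file headers, and counted as 1 replicate. Its trimmed means (2% cut at each end) lay between 249.7 and 250.1, and its signals were used as deposited. On S98 control 3 (trimmed mean 500.3) was multiplied by 0.707 and mutant 3 (250.1) by 1.41. Signals below the 5th percentile of a table (2.40 and 1.98) were raised to it before log2. The brightest probe set gave a gene's value, and genes whose mean signal exceeded the 25th percentile (25.4 on Ye6100, 28.1 on S98) in both tables were tested. Of 6593 Ye6100 probe sets 5840 were named by locus tag through a RefSeq gene table (assembly R64), and of 9335 on S98 6504 by a single platform gene symbol. Neighbouring genes come from the same RefSeq table.

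The test was a genotype term in limma 3.58.1 under R 4.3.3 (lmFit, then eBayes with trend), blocked by array format and adjusted by Benjamini-Hochberg over 4287 genes. The block comes from the series' design, in which each mutant has the control of its own array. The fit leaves 2 residual degrees of freedom. Precision is limited by the number of arrays. The script was tested on simulated data. Figures used matplotlib 3.10.9 in Python 3.11.15. The members and lists were chosen with earlier results of these data known. All subunits are named, and of the lists of initiation factors, Mediator, assembly factors and the mitochondrial polymerase the 3 tested genes with the largest absolute change. GPN3, also set to be named as the neighbour of ARV1, was among them. Promoter sequences and motifs were not analysed here. The alternatives changed the threshold, the trend, the block, the choice of probe set, the filter, the floor or the scaling, or left out 1 sample.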

Additional observations from a re-analysis of the deposited data

Results flagged for a closer look

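RPB2 and RET1, the genes for the second-largest subunits of Pol II and Pol III, were singled out because the sample of isolate SCY820 went one way and both samples of isolate SCY840 the other. RPB2 had a log2 ratio of -0.60 in mutant 1, against 0.17 and 0.03 in mutants 2 and 3. RET1 had -0.11 in mutant 1, against 0.43 and 0.12. Several of these ratios lie close to 0, and with median centring the mutant 3 ratios turn to -0.26 and -0.17. The share of all tested genes with the same pattern of signs is not given here. The difference between the isolates was not tested.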

How the results depend on the processing

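The Pol I median of the fitted log2 change was below 0 under every alternative run, and by limma 0 subunits passed an adjusted p of 0.05 except without mutant 2, where 4 did. Of all tested genes limma called 0, but 7 with S98 signals as deposited, 1 with quantile normalization, and 0 to 669 when 1 sample was left out. Leaving out 1 mutant gave 0 to 4 called subunits. The number lower in all remaining mutants then ranged from 9 to 24 for all 31 subunits, 0 to 4 for Pol II and 3 to 7 for Pol III. Such a number can only stay or rise when a mutant is left out. Of all tested genes 14.6% were lower in all 3 mutants and 24.5% in mutants 1 and 3. Across alternatives 52 fitted changes of single subunits turned sign, 4 passed the threshold and 436 did neither. The fits without control 3 and without mutant 3 gave the same fitted changes, and both are in these counts. The causes were not tested. The 436 are no measure of stability, since many come from alternatives that left the fitted changes as they were. The floor, the filter and the trend moved no subunit's fitted change, and the choice of probe set moved only that of RPA190, to -0.66. Fewer samples did not mean fewer calls, since 30 genes were called without mutant 1 and 669 without mutant 2. Signals of RPC53 in mutants 1 and 2 (25.4 and 22.5) lay near the filter of 25.4.

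With S98 signals as deposited, where the median of all genes moves to -0.33, the median fitted change was -1.05 for Pol I, -0.79 for Pol I and III, -0.50 for Pol II, -0.78 for Pol III and -0.76 for all 31. The mutant 3 medians were then -1.46 for Pol I, -1.11 for Pol II and -1.29 for Pol III, and 5 Pol III subunits were lower in all mutants, as with median centring and quantile normalization (5 each). Median centring gave a fitted median of -0.25 for Pol II, mutant 1 medians of -1.27, -0.44 and -0.99 and mutant 3 medians of -0.74, -0.40 and -0.57 for Pol I, II and III. Quantile normalization gave mutant 1 medians of -1.25 for Pol I and -0.41 for Pol II. A filter at the median signal gave a mutant 2 median of 0.43 for Pol III, over fewer genes, which lay above the 0.19 of Pol II. Without the replicate block, which pairs each mutant with the control of its own array, the fitted median was -1.03 for Pol I and -0.30 for Pol II.

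Single fitted changes that turned sign follow. As deposited, RPC10 had -0.37, RPB4 -0.36, RPB7 -0.25, RPB11 -0.38, RET1 -0.28 and RPC11 -0.31. With median centring the same genes had -0.13, -0.12, -0.0037, -0.14, -0.042 and -0.068, and without the replicate block -0.16, -0.35, -0.029, -0.085, -0.33 and -0.26. Quantile normalization turned RPB8 to 0.034, RPB4 to -0.019 and RPB11 to -0.044. Without control 1/2 the changes that turned sign were 0.093 for RPA135, -0.45 for RPC10, 0.27 for RPO21, 0.026 for RPB2, -0.24 for RPB4, -0.27 for RPB7, -0.50 for RPB11, 0.20 for RPO31, 0.19 for RPC53, -0.20 for RPC11, from mutant 3 against control 3 alone. When any other single sample was left out, the fitted change ranged from -1.10 to 0.16 for RPA12, -0.82 to 0.11 for RPO26, -0.28 to 0.015 for RPB5, -0.37 to 0.20 for RPB8, -0.66 to 0.39 for RPB10, -0.47 to 0.45 for RPC10, -0.88 to 0.34 for RPO21. For the remaining genes that turned sign it ranged from -0.29 to 0.098 for RPB2, -0.18 to 0.30 for RPB4, -0.22 to 0.039 for RPB9, -0.30 to 0.47 for RPB11, -0.39 to 0.26 for RPC25, -0.44 to 0.60 for RPC11.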
